A study of Homo sapiens with 6 samples.

Results

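Peaks of the speckle protein SON and of the chromatin protein HMGB2 were examined at 10 genes of the fibroblast extracellular matrix in IMR90 cells: COL1A1, COL1A2, COL3A1, COL5A1, COL6A1, COL6A2, FN1, SPARC, FBN1 and THBS1. The genes were taken by name, as known matrix genes, and listed when earlier results of these data were known, out of 19974 protein-coding genes on chromosomes 1 to 22 and X. A peak was counted for a gene when it met the RefSeq span of the gene or the 5 kb on either side. IMR90 is an established line of fibroblasts from human embryonic lung. SON was profiled by ChIPmentation in untreated cells, after 3 days of ICM and after 6 days of ICM, a treatment that the labels do not spell out, and HMGB2 was profiled in untreated cells. In ChIPmentation a transposase cuts antibody-bound chromatin and adds the sequencing adapters on the beads. Cells for SON were fixed with formaldehyde, and cells for HMGB2 with EGS, a protein crosslinker, before formaldehyde, so a contrast of the targets includes the fixation. Each group has 1 peak list and no condition was tested against another; a listed peak reflects the authors' threshold and the depth of its library, which is unknown. The other 2 samples of the series, both for HMGB2, an input and one with DSG in its title, are not analysed here.

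Fibroblasts build the matrix by secreting collagen chains that assemble into fibrils outside the cell, together with glycoproteins that anchor cells and store growth factors. Type I, III and V collagens form the banded fibrils of connective tissue, type VI collagen forms beaded filaments around cells, fibronectin links fibrils to integrins, and fibrillin microfibrils hold latent TGF-beta. SON is a scaffold of nuclear speckles, bodies rich in splicing factors beside which many active genes lie. HMGB2 is a non-histone protein that binds and bends DNA.

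In untreated cells 8 of the 10 genes carried a SON peak, with 20 peaks in all, and 9 of the 10 carried an HMGB2 peak, with 27 peaks in all. After 3 days of ICM the genes with a SON peak were COL5A1, FN1 and FBN1, with 6 peaks, and after 6 days they were FN1 and FBN1, with 2 peaks. The whole SON lists also differed in length, with 22362, 11158 and 5583 lines. Per 100 kb the 10 genes held 2.47, 0.741 and 0.247 SON peaks and 3.33 HMGB2 peaks. The windows of all protein-coding genes held 1.33, 0.731, 0.346 and 0.447 in the same order. An HMGB2 peak was present at 90% of the 10 genes, where 23.3% of all protein-coding genes had one. For SON the 10 genes stood at 80% in untreated cells, where all protein-coding genes stood at 57.1%. The corresponding pairs were 30% and 41.0% at 3 days, and 20% and 21.5% at 6 days, which is near the background. Each gene moves the share of the 10 genes by 10 percentage points, and these differences were not tested. Long genes meet more peaks. Among the 10539 protein-coding genes whose span lay within the range of the 10, from 17.5 to 237 kb, the shares were 65.3%, 46.5%, 23.7% and 24.9% in the same order.

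**Figure D1:**
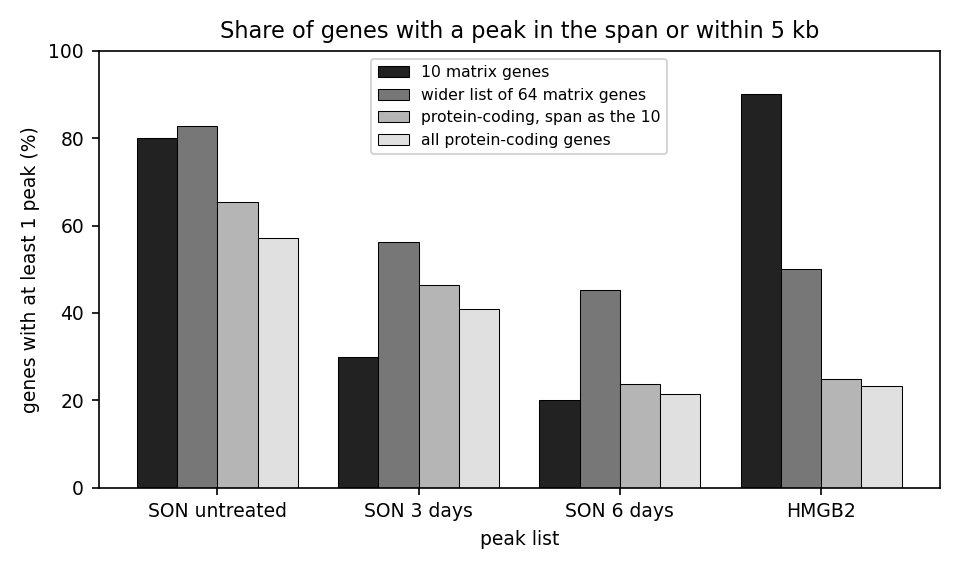
The bars give the percentage of genes with at least 1 peak in the span or within 5 kb (vertical axis, starting at 0) for each of the 4 peak lists (horizontal axis), for the 10 matrix genes, the wider list of 64 matrix genes, the protein-coding genes of like span and all protein-coding genes. For HMGB2 the 10 genes stand at 90% against 23.3% of all protein-coding genes, while for SON at 3 days they stand at 30% against 41.0%.

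The 6 genes with an entry in the RefSeq promoter table of GRCh38.p14 were COL5A1, COL6A2, FN1, SPARC, FBN1 and THBS1. A SON peak of untreated cells met the promoter window, from 250 bases before to 50 after the start, at FN1 and SPARC, and a 3-day SON peak met it at FN1. Of all promoter entries of protein-coding genes, 34.0% were met in untreated cells and 24.1% at 3 days, so 2 and 1 of 6 are near the background. No 6-day SON peak and no HMGB2 peak met a promoter window of the 6 genes, where 9.57% and 11.2% of all entries were met. At FBN1 the listed start lies inside the gene span. An untreated SON peak across the higher-coordinate end of that span, centred 832 bases before the start, missed the window. The 250 bases before the start are shown for FN1 and SPARC, whose windows a SON peak met, and for THBS1, which carries no SON peak in any list. Each is read 5′ to 3′ in the direction of the gene. The FN1 stretch is chr2:215436069-215436318 on the minus strand, that of SPARC is chr5:151686916-151687165 on the minus strand, and that of THBS1 is chr15:39580829-39581078 on the plus strand. Capitals mark matches on either strand to the GC box GGGCGG, the CCAAT box CCAAT, the TATA box TATAAA, the AP-1 site TGANTCA, the cAMP response element TGACGTCA and a core of the CTCF motif, where N is any base and GC boxes may overlap each other.
FN1: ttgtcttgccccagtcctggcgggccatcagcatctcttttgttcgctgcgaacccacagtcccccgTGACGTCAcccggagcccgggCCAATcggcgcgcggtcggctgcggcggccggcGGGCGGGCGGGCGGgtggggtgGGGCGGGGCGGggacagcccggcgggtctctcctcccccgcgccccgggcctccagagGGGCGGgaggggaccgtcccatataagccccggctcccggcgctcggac
SPARC: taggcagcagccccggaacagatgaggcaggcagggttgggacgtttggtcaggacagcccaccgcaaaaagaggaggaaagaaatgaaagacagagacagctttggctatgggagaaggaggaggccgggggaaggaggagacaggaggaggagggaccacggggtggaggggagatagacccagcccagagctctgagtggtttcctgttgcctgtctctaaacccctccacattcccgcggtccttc
THBS1: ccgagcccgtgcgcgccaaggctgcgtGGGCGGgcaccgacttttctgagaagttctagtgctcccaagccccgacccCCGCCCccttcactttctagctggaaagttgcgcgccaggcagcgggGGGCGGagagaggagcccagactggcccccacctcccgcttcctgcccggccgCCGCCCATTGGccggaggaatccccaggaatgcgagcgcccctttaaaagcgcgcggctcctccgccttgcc
The FN1 promoter held 6 GC boxes, 1 CCAAT box and 1 cAMP response element, which began 183 bases before the start. A cAMP response element was present in 1.65% of the 35116 promoter entries of the table, a CCAAT box in 32.0% and a GC box in 42.6%. The THBS1 promoter held 4 GC boxes and a CCAAT box on the opposite strand 66 bases before the start. The SPARC promoter held none of the 6 motifs and had a GC content of 59.2%, near the median of 58.0% over all entries, against 76.4% in FN1 and 69.6% in THBS1. A TATA box was found at COL6A2 alone among the 6 genes, 32 bases before the start, and in 10.7% of all entries. The AP-1 site and the CTCF core, present in 6.57% and 0.0513% of all entries, were not found in these windows. A match of letters describes the sequence and shows no binding.

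**Figure D2:**
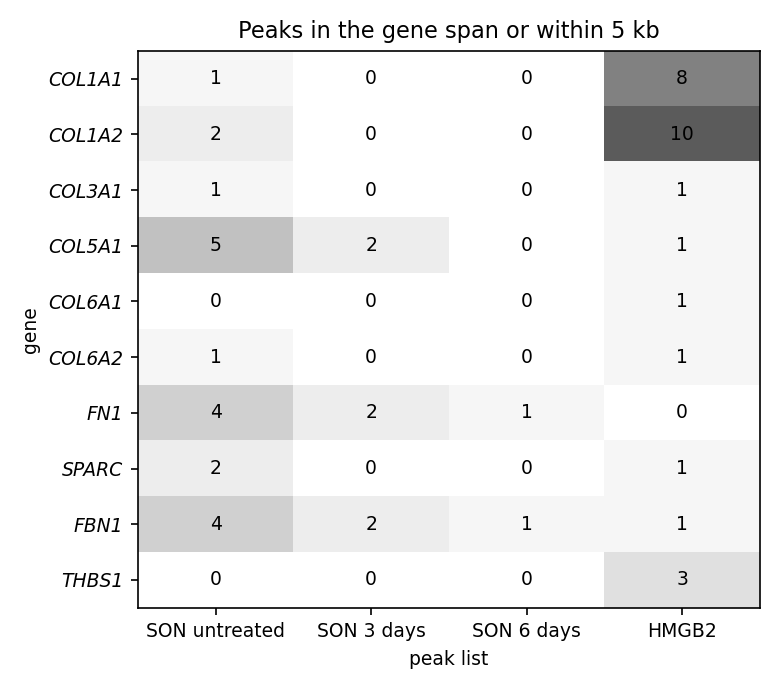
Each cell gives the number of peaks in the span of a gene or within 5 kb of it (rows, 10 genes) in each peak list (columns), with darker grey for more peaks. FN1 and FBN1 are the genes with a peak in every SON list, and COL1A1 and COL1A2 hold 8 and 10 HMGB2 peaks.

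FN1, which encodes fibronectin, had a SON peak in every SON list and was the gene of the 10 without an HMGB2 peak. In untreated cells it carried 4 SON peaks over its span of 75.2 kb (chr2:215360865-215436068). Their strength, the −log10 p that the authors' list gives for the weaker of 2 replicates, was 24.1 in the peak at chr2:215410919-215411369, 13.9 at the start, and 6.55 and 6.46 in the others. The strongest lay 24.9 kb downstream of the start, inside the gene, and stood at the 89.0th percentile of its list, the highest of the 20 untreated peaks. At the same place the 3-day list had a peak with a −log10 p of 8.20, at the 39.8th percentile, and the 6-day list one with 7.24, at the 27.7th percentile. The 3 peaks at this place covered nearly the same bases: the 3-day peak overlapped the untreated peak by 451 bp and the 6-day peak by 431 bp. The global irreproducible discovery rate (IDR), the authors' measure of how well the replicates match, where low values are better, was 0.00355, 0.075 and 0.345 in that order. In the replicates of the 6-day list the −log10 p was 7.24 and 11.2.

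The FN1 start carried a SON peak at chr2:215435982-215436529 before treatment, whose −log10 p was 13.9 and whose IDR was 0.00838. At 3 days the peak there had 7.84 and an IDR of 0.447, the largest value that the list holds, and the 6-day list had none there. This peak also meets FN1-DT, a lncRNA gene whose span overlaps that of FN1 at this end, so it cannot be given to FN1 alone. The 2 weakest FN1 peaks of untreated cells, with IDRs of 0.431, were in neither later list. The protein-coding genes whose strongest peaks had the percentiles most like those of FN1 over the 4 lists were ST7L, GEMIN6 and DTWD1, with largest differences of 3.11, 3.19 and 3.45 percentile points over these 4 values.

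FBN1, which encodes fibrillin-1 of the elastic microfibrils, was the other gene with a peak in every SON list, but at different places along its 237 kb (chr15:48408313-48645709). The 4 untreated peaks had −log10 p values of 10.5, 9.13, 5.14 and 11.4. The last lay across the higher-coordinate end of the gene, at chr15:48645504-48646100, and also met the lncRNA gene FBN1-DT. Of these 4, the peak with 9.13, which lay 52.5 kb downstream of the start, was met at 3 days by a peak with 8.98 and an IDR of 0.0497. That was the 1 peak with an IDR of at most 0.05 among the 6 peaks of the 10 genes at 3 days. The second 3-day peak of FBN1, with 7.45 and an IDR of 0.0919, lay 231 kb downstream of the start and met no untreated peak. The 6-day peak, with 8.57 and an IDR of 0.63, lay 78.8 kb downstream of the start and met no peak of another list. The FBN1 signal at 6 days thus rested on a line at the largest IDR of its list. The 1 HMGB2 peak in FBN1 had a fold enrichment of 5.27 and a −log10 p of 10.3, and it overlapped the weakest untreated SON peak by 210 bp.

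**Figure D3:**
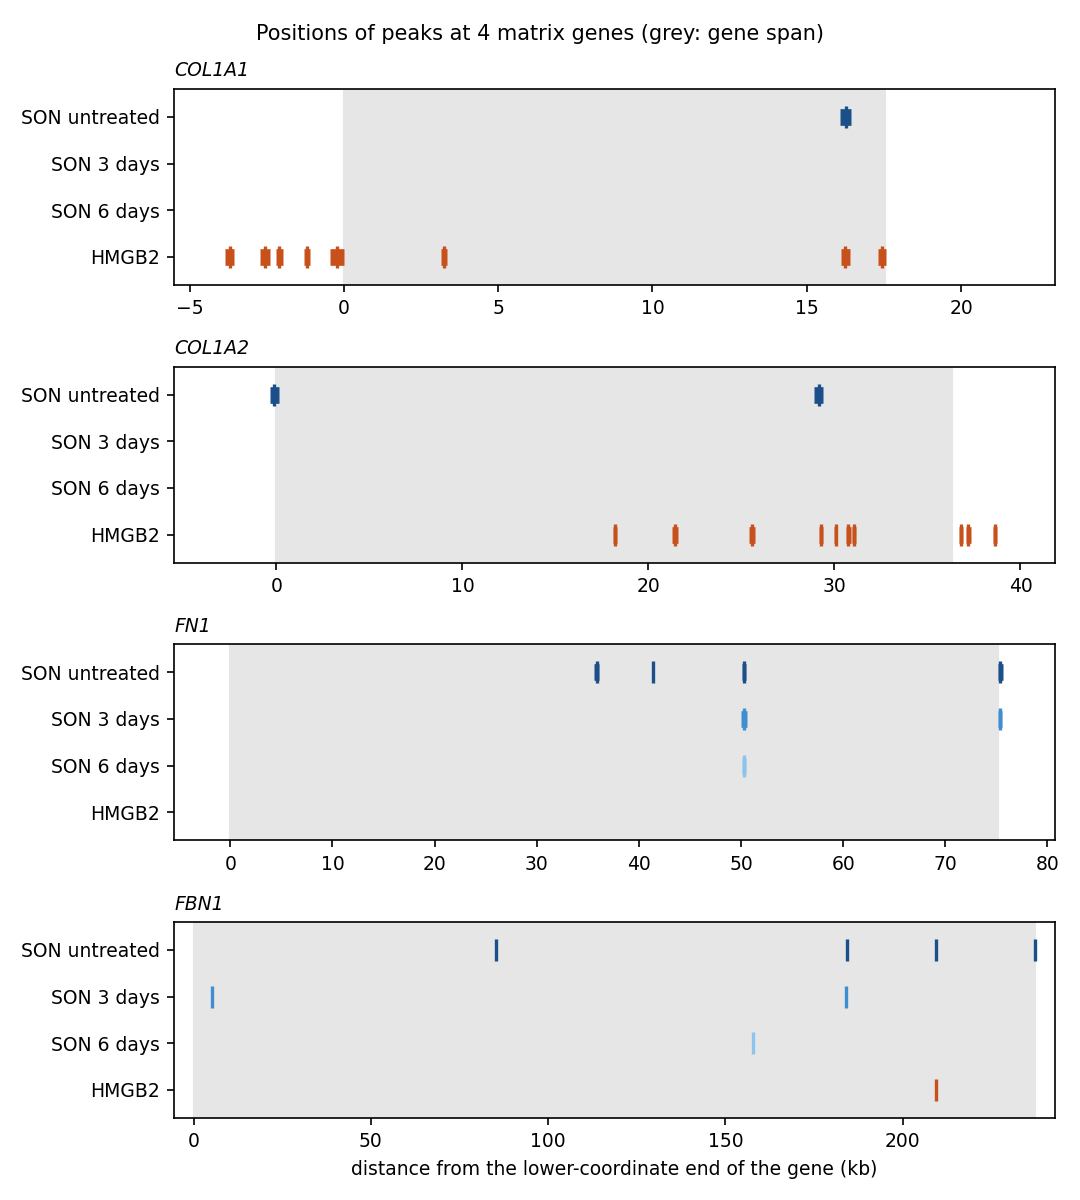
Peaks of the 4 lists (rows of each panel) are placed by distance in kb from the lower-coordinate end of COL1A1, COL1A2, FN1 and FBN1, with the gene span in grey. HMGB2 peaks lie towards both ends of COL1A1, with more of them at the lower-coordinate end, and in the higher-coordinate part of COL1A2. FN1 has a SON peak at the same place in untreated cells and at both later times.

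COL5A1 encodes a chain of type V collagen, which takes part in the nucleation of collagen fibrils. It spans 203 kb (chr9:134641803-134844843) and carried 5 SON peaks in untreated cells, more than any other of the 10 genes, and 2 at 3 days. The untreated peaks had −log10 p values of 20.4, 6.53, 6.12, 8.60 and 17.9 in order along the chromosome. The strongest, 3.10 kb downstream of the start, and the next strongest, 170 kb downstream, were the ones that the 3-day list met, with −log10 p values of 7.60 and 7.48. Both 3-day peaks had an IDR of 0.447, and neither place had a 6-day peak. The peak with 8.60 also met LOC124902301, a lncRNA gene inside COL5A1. The 1 HMGB2 peak of COL5A1, with a fold of 5.45 and a −log10 p of 7.49, lay 106 kb downstream of the start and met no SON peak. Per 100 kb of gene and flanks, COL5A1 held 2.35 untreated SON peaks and FN1 4.69. All protein-coding windows together held 1.33, and the median over protein-coding genes with a peak was 3.20.

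COL1A1 and COL1A2 encode the chains of type I collagen, the main collagen of fibroblasts. Both had SON peaks in untreated cells and none in the later lists. COL1A1 carried 1, at chr17:50200191-50200536, with a −log10 p of 7.75 (30.9th percentile) and an IDR of 0.122. COL1A2 carried 2, 1 across its lower-coordinate end at chr7:94394554-94395008, with 16.4 (76.8th percentile), and 1 within the gene at chr7:94423790-94424299, with 11.8 (60.8th percentile).

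HMGB2 marked the type I collagen genes with runs of peaks. COL1A1 (chr17:50184101-50201631, 17.5 kb) carried 8 HMGB2 peaks and COL1A2 (chr7:94394895-94431227, 36.3 kb) 10, together 18 of the 27 at the 10 genes. Of all protein-coding genes, 0.0951% had at least 8 HMGB2 peaks and 0.0401% at least 10, which is 19 and 8 genes. COL1A2 ranked 7 by number, level with 1 other gene, and 78 by peaks per 100 kb, with 21.6, and COL1A1 ranked 14 by number, level with 5 others, and 32 by peaks per 100 kb, with 29.1. The HMGB2 peaks of COL1A1 lay within 21.4 kb and those of COL1A2 within 20.6 kb. Median gaps between neighbours were 832 and 1187 bp, and the median over the whole HMGB2 list was 78.1 kb. Runs of 8 and 10 peaks in windows of 27.5 and 46.3 kb must have short gaps, so the gaps add nothing to the counts. The extents are likewise limited by the windows. With 10 kb on either side the genes held 11 and 10 HMGB2 peaks.

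The runs were uneven along both genes. At COL1A1, 4 of the 8 peaks lay outside the span, all beyond its lower-coordinate end, at 3.56, 2.38, 1.98 and 1.10 kb from it, and the fifth crossed that end. A gap of 12.8 kb without a peak separated the peak at chr17:50187236-50187435 from the one at chr17:50200204-50200492. The last peak, at chr17:50201424-50201663, crossed the higher-coordinate end, with a fold of 4.93 and a −log10 p of 10.3. At COL1A2, 7 peaks lay in the higher-coordinate part of the gene, the first of them 18.2 kb from the lower-coordinate end, and 3 lay within 2.18 kb beyond the higher-coordinate end. No HMGB2 peak met the end of COL1A2 that carried the SON peak with 16.4. Fold enrichment ranged from 3.88 to 7.78 at COL1A1, with a median of 5.07, and from 3.59 to 7.25 at COL1A2, with a median of 5.13, against a median of 4.89 over the list. The −log10 p ranged from 6.17 to 16.5 at COL1A1 and from 5.92 to 13.3 at COL1A2, against a list median of 9.52. The measures of strength differed at COL1A2, where 8 of 10 peaks were above the list's median by fold and 2 by −log10 p. At COL1A1 both put 5 of 8 above it. At each gene 1 HMGB2 peak overlapped a SON peak, by 289 bp at COL1A1 and by 218 bp at COL1A2, which are the whole HMGB2 peaks.

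**Figure D4:**
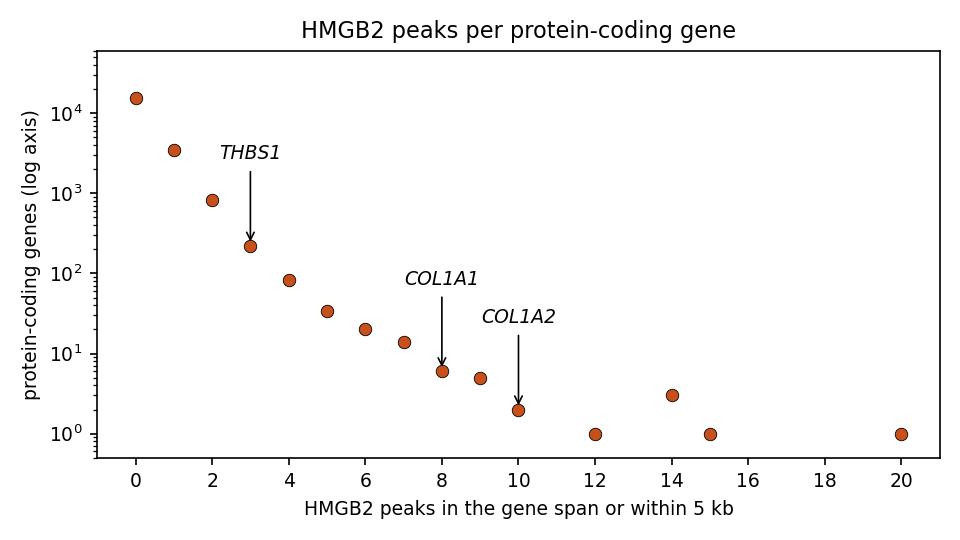
Each point gives the number of protein-coding genes (vertical log axis) with a given number of HMGB2 peaks in the span or within 5 kb (horizontal axis). COL1A1 with 8 peaks and COL1A2 with 10 lie in the tail, and THBS1 has 3.

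THBS1, the gene of thrombospondin 1, a secreted glycoprotein that can activate latent TGF-beta, carried 3 HMGB2 peaks and no SON peak. Its HMGB2 peaks lay 7.58, 11.8 and 13.2 kb downstream of the start in a span of 18.4 kb (chr15:39581079-39599466). Their folds were 4.74, 6.22 and 5.78 and their −log10 p values 7.96, 12 and 10.5. At least 2 HMGB2 peaks were present at 6.11% of protein-coding genes, and COL1A1, COL1A2 and THBS1 were the 3 of the 10 with as many.

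COL3A1 encodes the chain of type III collagen, which forms fibrils together with type I. Its 1 HMGB2 peak, at chr2:188975689-188976051, was the strongest of the 27, with a fold of 9.14 and a −log10 p of 21 at the 94.9th percentile. It lay 1.50 kb from the lower-coordinate end of the gene, where the lncRNA gene LOC105373791 overlaps COL3A1. The 1 SON peak of COL3A1 belonged to the untreated list and lay 2.01 kb outside the span, with a −log10 p of 6.99 and an IDR of 0.431.

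COL6A1 and COL6A2, neighbours on chromosome 21, encode chains of type VI collagen. COL6A1 had no SON peak, and its 1 HMGB2 peak, with a fold of 5.91 and a −log10 p of 9.59, lay 0.861 kb outside the span in the lncRNA gene LOC105372841. COL6A2 had no peak inside its span. In its flank, 0.528 kb beyond the higher-coordinate end, lay a SON peak of the untreated list, of −log10 p 5.21 and an IDR of 0.431, which a weak HMGB2 peak with 6.88 and a fold of 4.62 overlapped by 280 bp. The span of the gene FTCD lies further along on that side.

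SPARC encodes a glycoprotein that binds collagen and calcium. Its untreated SON peaks numbered 2, 1 with a −log10 p of 14.7 centred 1.72 kb downstream of the start and 1 with 6.92 over the promoter shown above. Neither was met by a later SON peak. The 1 HMGB2 peak of SPARC lay wholly inside the stronger SON peak and was the weakest of the 27, with a fold of 2.90 and a −log10 p of 5.03. The span of SPARC overlaps the lncRNA gene CLMAT3, which all 3 peaks also met.

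Peaks just beyond the 5 kb limit were read as well. At 5.29 kb from COL1A1 lay an untreated SON peak with a −log10 p of 22.8, stronger than the 1 counted for the gene, met at 3 days by a peak with 7.25 and at 6 days by one with 5.45. At 5.40 kb from COL6A2, in the lncRNA gene COL6A2-DT, lay one with 22, met by 7 at 3 days and 11.2 at 6 days. HMGB2 peaks lay there too, at 5.38, 8.02 and 8.63 kb from COL1A1, with −log10 p values of 15.4, 27.9 and 12.4. The one with 27.9 was stronger than any of the 27 counted. Each overlapped an untreated SON peak, and the one at 5.38 kb also overlapped the 3-day and the 6-day SON peak there. Just inside the limit, the outermost counted peak was the HMGB2 peak of COL1A1 at 3.56 kb. With a limit of 10 kb, 5 genes had a SON peak at 3 days and 4 at 6 days. The absence of later SON peaks at COL1A1 and COL6A2, and the overlaps of HMGB2 with SON at COL1A1, therefore hold for the 5 kb windows.

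The strength of the peaks at the 10 genes was set against that of their own lists. The 20 untreated peaks ranged in −log10 p from 5.14 to 24.1 with a median of 8.86, against 9.91 over the list, and 9 were above the list's median (45.0%, 95% exact binomial interval 23.1 to 68.5%, counting error only). The 6 peaks at 3 days ranged from 7.45 to 8.98, all below the list's median of 9.10. The 2 peaks at 6 days had 7.24 and 8.57 against a median of 8.55. The 27 HMGB2 peaks ranged from 5.03 to 21 with a median of 8.77, and 12 were above the list's median (44.4%, 25.5 to 64.7%). By fold enrichment in place of −log10 p the direction turned, and 19 of the 27 were above the list's median (70.4%, 49.8 to 86.2%). Of the SON peaks, 11 of 20, 1 of 6 and 0 of 2 had an IDR of at most 0.05, where 59.7%, 41.8% and 16.0% of all lines of the lists did. With that limit the genes with a SON peak numbered 5 before treatment, 1 at 3 days and 0 at 6 days, where all protein-coding genes stood at 45.0%, 24.0% and 5.02%. In 13 of the 20 untreated peaks both replicates had exactly the same −log10 p, as in 55.9% of that list. The share was 29.0% of the 3-day list and 9.49% of the 6-day list. How the replicates were made is not given in the sources used here, and whether this bears on the IDRs of the lists was not tested.

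**Figure D5:**
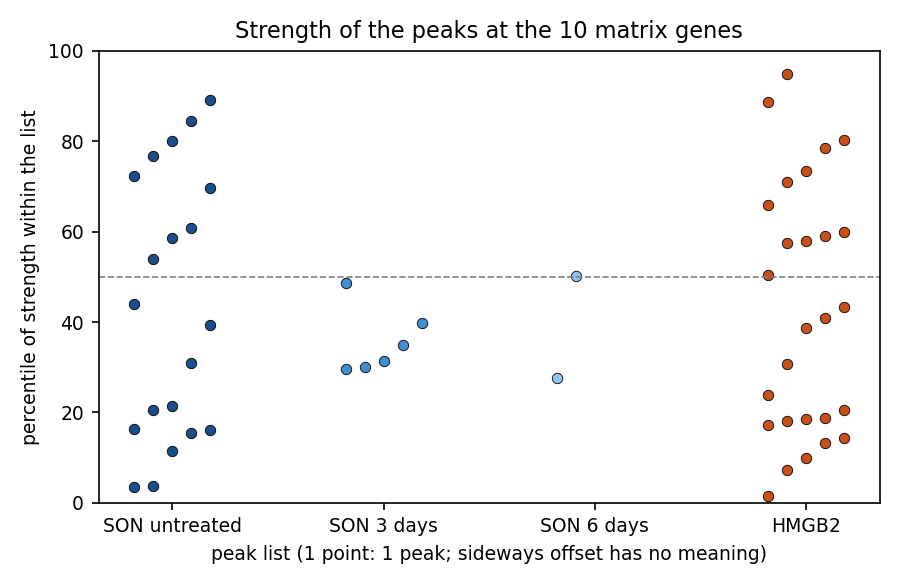
Each point is 1 peak at the 10 genes, placed by its percentile of −log10 p within its own list (vertical axis, 100 is the strongest; dashed line at 50), for the 4 lists (horizontal axis). All 6 SON peaks at 3 days lie below the dashed line, and the untreated SON and the HMGB2 peaks spread over most of the range.

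Of the 20 untreated SON peaks, 5 (25.0%, 8.66 to 49.1%) were met by a 3-day peak, at FN1, COL5A1 and FBN1, and 1 (5%, 0.127 to 24.9%) by a 6-day peak, at FN1. Over all untreated peaks the shares were 45.4% and 21.9%. The intervals treat the 20 peaks as independent, though COL5A1 carried 5 of them, FN1 4 and FBN1 4. They may thus be too narrow, as may the one given above for the strength of the untreated SON peaks. The 5 that were met at 3 days had a median −log10 p of 17.9 and the other 15 a median of 6.99. Split at the list's median, 4 of 9 stronger peaks and 1 of 11 weaker ones were met at 3 days, where 70.2% and 20.9% of all untreated peaks were. The stronger peaks of COL1A2, with 16.4, and of SPARC, with 14.7, were the strongest without a later peak. In the other direction, 5 of the 6 peaks at 3 days and 1 of the 2 at 6 days met an untreated peak, where 91.6% and 88.9% of all peaks of these lists did. By gene, 3 of the 8 with an untreated peak had one at 3 days and 2 had one at 6 days, against 70.2% and 37.2% of the protein-coding genes with an untreated peak.

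Untreated SON and HMGB2 peaks were present together at 7 of the 10 genes, where 21.6% of protein-coding genes had both. Since 8 of the 10 had an untreated SON peak and 9 an HMGB2 peak, at least 7 had to have both. The number with both therefore adds nothing to those counts. An untreated SON peak was met by 5 of the 27 HMGB2 peaks (18.5%, 6.30 to 38.1%), against 62.3% of the whole HMGB2 list. None of the 27 overlapped a 3-day or a 6-day SON peak (interval 0 to 12.8%), against 44.1% and 23.5% of all HMGB2 peaks. This holds for the 5 kb windows, since an HMGB2 peak of COL1A1 just beyond the limit overlapped both. These intervals treat the 27 peaks as independent, though 18 lie in the runs at COL1A1 and COL1A2. They may thus be too narrow, as may those given above for the strength of the HMGB2 peaks. The runs at COL1A1 and COL1A2 supplied 16 of the 22 HMGB2 peaks without SON, so the share of 18.5% rests largely on the pair. At the other genes 3 of 9 HMGB2 peaks (33.3%) overlapped an untreated SON peak, and none of the 9 overlapped a later one.

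The wider matrix list held 64 other genes of the fibroblast matrix, its processing and its signalling. An untreated SON peak was present at 53 of the 64, a 3-day peak at 36, a 6-day peak at 29 and an HMGB2 peak at 32. As shares these are 82.8%, 56.2%, 45.3% and 50%, beside 57.1%, 41.0%, 21.5% and 23.3% of all protein-coding genes. The corresponding counts for the 10 genes were 8, 3, 2 and 9. Long genes meet more peaks, and spans in the wider list reach 409214 bp at COL5A2. No background of genes of like span was counted for the 64, so the part of span in their shares was not tested. A peak in all 3 SON lists was present at 28 of the 64 and at 2 of the 10, and at 20.3% of protein-coding genes. Of the 13 genes of collagen processing, all 13 had a SON peak before treatment, 10 (76.9%) at 3 days and 8 (61.5%) at 6 days. The 5 wider genes with the strongest untreated SON peak were P4HB and P4HA1, subunits of the prolyl hydroxylase that stabilises the collagen helix, PLOD3, a lysyl hydroxylase, TGFBI, a secreted matrix protein, and COL12A1, a collagen bound to fibrils. The best −log10 p of P4HB was 85.3 before treatment, 97.4 at 3 days and 37.01 at 6 days, at or above the 98.3rd percentile of each list. P4HA1 had 46.2, 33.05 and 17.5, at the 97.4th, 94.2nd and 93.5th percentiles. PLOD3 had 37.7, 31.4 and 14.5, at the 95.7th, 93.8th and 88.5th. TGFBI had 51.5, 16.4 and 13.8, at the 97.9th, 82.7th and 87.1st. COL12A1 had 37.5 and 15.8, at the 95.7th and 81.6th, and no 6-day peak. FN1, the strongest of the 10 genes, had 24.1 in untreated cells. The 5 genes were picked from 64 by this same value, so their lying above FN1 says nothing of the wider list as a whole.

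The other genes of the wider list with a 6-day SON peak came from all 6 groups of the list. They were the collagens COL4A1, COL4A2, COL5A2 and COL8A1, the processing genes PLOD1, PLOD2, LOXL2, ADAMTS2 and PCOLCE, the integrins ITGA1, ITGA5 and ITGA11, TIMP2, SMAD3 and SMAD4. Those among proteoglycans, basement membrane and other matrix proteins were DCN, LUM, VCAN, NID2, LAMA4, LAMB1, LAMC1, TNC, EFEMP1 and CCN2. The 8 other collagens had a SON peak at 7 genes before treatment, 5 at 3 days and 4 at 6 days. Proteases and their inhibitors had them at 5, 2 and 1 of 7 genes (71.4%, 28.6% and 14.3%). All protein-coding genes stood at 57.1%, 41.0% and 21.5%. With 7 genes, 1 gene moves the share by 14.3 percentage points, so no difference is read from these counts.

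Markers of cell identity were read in the same way, though a peak is no measure of expression. SON peaks were present at 9 of 11 fibroblast markers in untreated cells, at 4 after 3 days and at 1 after 6 days, and HMGB2 peaks at 4. The 18 markers of epithelial, endothelial, leukocyte and neuronal cells had them at 8, 4, 2 and 2 in the same order of lists. For all protein-coding genes the shares were 57.1%, 41.0%, 21.5% and 23.3%. By cell type the untreated SON counts were 2 of 7 epithelial, 3 of 4 endothelial, 1 of 4 leukocyte and 2 of 3 neuronal markers, so markers of other cell types also carried SON. COL1A1, COL1A2, COL3A1 and FN1 belong both to the 10 genes and to the fibroblast markers.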

How the data were processed

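The 4 deposited peak lists hold ChIPmentation peaks of IMR90 cells, 1 list per group, and groups were taken from titles and treatment labels. The submitters' processing notes name bcl2fastq 2.17, Bowtie2, deepTools, MACS2 and the build hg38, with no role or order. The SON files have 20 columns laid out as IDR output for a pair of replicates, judged from the columns themselves. In it the authors deposited a −log10 p, the lower of the 2 replicates, a −log10 global IDR and a score that scales it. The lists reach a global IDR of 0.431, 0.447 and 0.63. The HMGB2 list, cut by the authors at a q of 0.03 per its peak names, has a deposited fold enrichment, −log10 p, −log10 q and score. Controls, filters and pooling are not given in the sources used here. Medians, ranks and percentiles were taken within each list. Where values of several lists stand side by side, they were not brought to a common scale. Their differences therefore do not measure a change in binding. The files give no read counts, so the precision that depth gives is unknown.

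Gene spans came from RefSeq for GRCh38.p14, without exons, and starts and strands from its promoter table. Peaks on chromosomes 1 to 22 and X were used. Lines of a list did not overlap. Peaks of 2 lists were shared at 1 bp or more. Percentiles rank all lines of a list by −log10 p. The 10 genes, the wider list, the markers and the rules for named genes were chosen with earlier results of these data known. All 10 genes were named, with the 5 wider genes of strongest untreated SON peak, those with a 6-day peak, and the 3 genes nearest to the strongest of the 10. With 1 list per group no test was made. Alternatives covered the window, the threshold, equal list lengths, the overlap and the measure of strength. Counting was tested on simulated data. Scripts ran in Python 3.11.15 with scipy 1.17.1, pandas 2.3.3, numpy 2.4.6 and matplotlib 3.10.9.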

Additional observations from a re-analysis of the deposited data

How the results depend on the processing

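No replicate could be left out, since each SON list holds lines of both its replicates together, and the −log10 p of each replicate served in turn as the measure of strength. Of 103 alternatives of counts and shares, 52 stayed within 1.5 times the count or within the binomial interval and 51 did not. The cause was not tested beyond what each alternative changes by construction. With few peaks the intervals are wide, 1.26 to 98.7% for strength at 6 days, so staying within one shows little. With an IDR of at most 0.05, 9.09% (1 of 11) of untreated SON peaks were met at 3 days, against 25.0%. In that setting 7.41% of HMGB2 peaks met untreated SON, against 18.5%. Both stayed within their intervals. Genes with a peak are given in the order untreated SON, 3-day SON, 6-day SON and HMGB2, from 8, 3, 2 and 9, and peaks in the same order from 20, 6, 2 and 27. Within 1 kb of either gene end there were 5, 1, 0 and 3 genes and 5, 1, 0 and 5 peaks. The stronger 50% of each list left 5, 0, 1 and 6 genes, and 9, 0, 1 and 12 peaks. The 5481 strongest peaks of each list left 3 genes with 4 untreated peaks and 0 genes at 3 days with 0 peaks. A global IDR of at most 0.05 left 5, 1 and 0 genes with 11, 1 and 0 peaks, and one of at most 0.01 left 4, 0 and 0 genes with 6, 0 and 0 peaks. A window of 10 kb gave 5 genes at 3 days, and 4 genes with 4 peaks at 6 days. One of 50 kb gave 8 and 5 genes at 3 and 6 days, and 52, 14, 6 and 44 peaks. With the strongest 5481 peaks of each list, 0% of untreated SON peaks were met at 3 days and 25.0% (1 of 4) at 6 days, and 0% of HMGB2 peaks met untreated SON; with an IDR of at most 0.05, 0% were met at 6 days. By fold in place of p, 70.4% of the HMGB2 peaks were above the list's median. By replicate 1 or by IDR, 0% of the 2 peaks at 6 days were above it. Protein-coding genes of like span had shares of 65.3%, 46.5%, 23.7% and 24.9%. Over its alternatives the HMGB2 count of 9 genes ranged from 3 to 9, with 7 for the gene span alone.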
